A study of Mus musculus with 12 samples.

Results

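The genes described here mark the subsets of dendritic cells in the spleen: Itgax, Flt3, Zbtb46, Batf3, Irf8, Xcr1, Clec9a and Cd209a for conventional dendritic cells, and Siglech for plasmacytoid dendritic cells. They are 9 of the 19057 genes that the arrays measured with a probe of a single gene symbol, and 18 probes carry their symbols. For each gene the probe with the highest mean over the 12 mice was used, and no measured difference between diets entered this choice. The spleens came from male C57Bl/6J mice on 3 diets, with 4 mice and 4 arrays per diet, bought at 6 weeks of age, kept for 3 weeks on control chow and then fed for 8 weeks. HFD-ED was a high-fat diet enriched in EPA (eicosapentaenoic acid) and DHA (docosahexaenoic acid), fatty acids that occur in fish oil, with 15 g fat per 100 g of diet, of which 10 g was coconut oil, 3 g corn oil and 2 g an EPA and DHA oil. HFD-CO held the same amounts of fat and coconut oil with 5 g corn oil, and both high-fat diets held 1 g cholesterol per 100 g. Fat in the control diet came to 5 g per 100 g, with 2.5 g each of corn and coconut oil. The mice had been caged in groups and selected from larger diet groups for their body weight and their triglyceride and cholesterol in plasma, and the cage of each mouse is not given in the sources used here.

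Dendritic cells take up antigen and present it to T cells, and the spleen holds several kinds. Type 1 conventional cells, the CD8+ cells of mouse spleen, depend on the transcription factors BATF3 and IRF8, carry the chemokine receptor XCR1 and the dead-cell receptor CLEC9A, and are known for presenting antigen of dying cells to CD8+ T cells. Type 2 conventional cells sit mainly in the bridging channels of the marginal zone and present antigen to CD4+ T cells, whereas plasmacytoid cells are known for their large output of type I interferon. All of them grow under FLT3 ligand, the cytokine bound by the receptor that Flt3 encodes.

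Clec9a was the member that set the diets apart, and none of the 9 passed the test across all probes. On its brightest probe, its level in HFD-ED spleens lay below that of each mouse on the other diets. There it was 30.0% below the control mean and 26.9% below the HFD-CO mean, although with a limma adjusted p of 0.193 and of 0.319. Of all probes with a mean of 7.5 or more, 5.60% lay wholly below control on HFD-ED and 3.96% wholly below HFD-CO. On the dimmer probes of Clec9a, HFD-ED and HFD-CO mice overlapped. Siglech showed another order of the diets, with similar means on both high-fat diets and the highest mean on the control diet, and its values overlapped between all 3 diets. Batf3 and Irf8 averaged lowest on HFD-ED with overlap, although on a dimmer Batf3 probe both high-fat diets lay wholly below the control mice. Of probes with a mean of 7.5 or more, 5.60% lay wholly below control on HFD-ED and 2.07% on HFD-CO. The other 5 members lay close to the lower end of the scale, where differences between diets were 0.12 log2 units or less.

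Levels are given on the authors' normalized scale, which is close to log2. It starts at 6.95 on these arrays, and 75.2% of all probes have a mean under 7.5, where the scale compresses differences. Of the members, Batf3, Irf8, Clec9a and Siglech had a mean of 7.5 or more, and Itgax, Flt3, Zbtb46, Xcr1 and Cd209a did not. Pearson's r between 2 arrays of 1 diet, across probes (which are no independent replicates), was 0.971 to 0.995. Marker genes fitted the tissue label, as 10 of 11 B cell genes, 9 of 11 T cell genes and 11 of 12 red pulp macrophage genes had a mean of 7.5 or more, against 1 of 10 skeletal muscle genes, the tissue that an extraction text of the labels names. A single limma model held the mice of all 3 diets, and the p-values of each comparison were adjusted by Benjamini-Hochberg over its 45281 probes. At an adjusted p of 0.05 there were 0 probes between HFD-ED and control, 0 between HFD-CO and control and 1 between HFD-ED and HFD-CO, while 4620, 2072 and 4211 had an unadjusted p under 0.05. The erythroid gene list stood high in HFD-ED replicates 2, 3 and 4. The pancreatic gene list stood high in HFD-CO replicate 4 and less so in HFD-CO replicate 1 (mean deviation 4.97 and 1.55). In whole spleen, fewer cells of a type and less RNA per cell cannot be told apart.

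**Figure D1:**
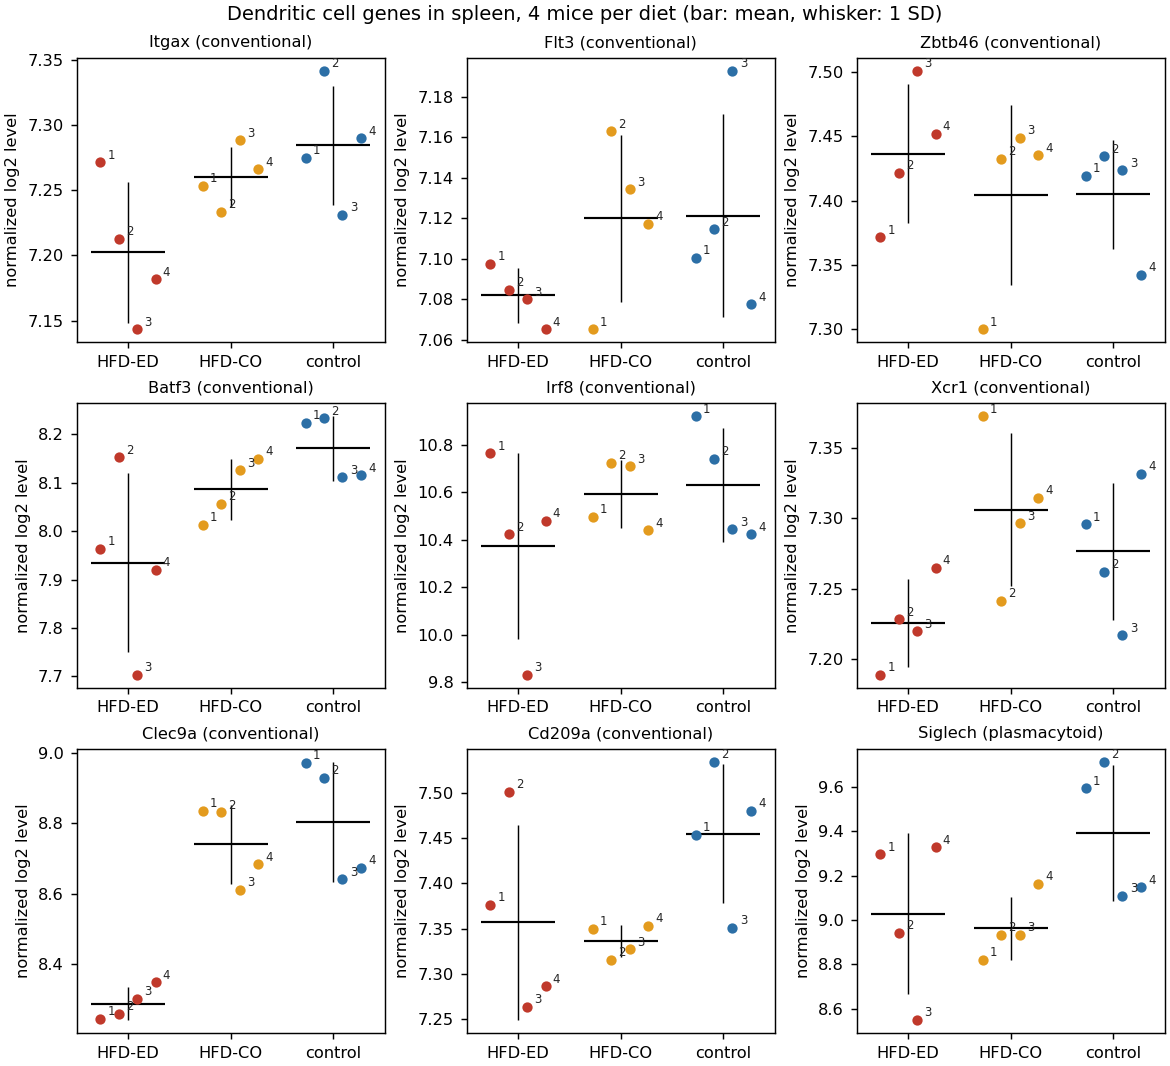
Normalized log2 level (y axis, own scale in each panel) of the 9 dendritic cell genes in 12 spleens, by diet, where points are mice with their replicate number, bars are diet means and whiskers 1 SD (n = 4). For Clec9a the 4 HFD-ED mice lie between 8.25 and 8.35, below all HFD-CO and control mice. On the probe shown for each other gene, HFD-ED mice overlap with both other diets.

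Clec9a encodes the C-type lectin by which type 1 conventional cells bind actin filaments of dead cells. Its level was 8.25, 8.26, 8.30 and 8.35 in the HFD-ED mice, 8.83, 8.83, 8.61 and 8.68 in the HFD-CO mice and 8.97, 8.93, 8.64 and 8.67 in the control mice. The HFD-ED mice formed a narrow band, with a mean of 8.29 ± 0.047, against 8.74 ± 0.11 on HFD-CO and 8.80 ± 0.17 on the control diet (SD, n = 4 each), and the HFD-CO and control mice covered almost the same range. The difference HFD-ED minus control was -0.51 log2 units (SE 0.079, 95% interval -0.69 to -0.34, limma adjusted p = 0.193), with the 7th smallest p of the 45281 probes. HFD-ED minus HFD-CO was -0.45 (SE 0.079, 95% interval -0.62 to -0.28, adjusted p = 0.319), the 18th smallest. HFD-CO minus control was -0.064 (SE 0.079, 95% interval -0.24 to 0.11, adjusted p = 1.0). Both HFD-ED comparisons use the same 4 HFD-ED mice, and the comparisons with the control diet share its 4 mice.

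Clec9a has 2 more probes, both dimmer. On the brighter of them, with a mean of 7.32, the 4 HFD-ED mice again lay below the 4 control mice, with a difference of -0.096 (limma adjusted p = 0.380). They overlapped with the HFD-CO mice, with 1 of the 4 below every HFD-CO mouse and a difference of -0.072 (limma adjusted p = 0.539). On the dimmest, with a mean of 7.15, the differences were -0.022 from control and 0.022 from HFD-CO. The mean of all 3 probes differed by -0.21 from control and by -0.17 from HFD-CO.

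Promoter sequences of Clec9a, Xcr1 and Siglech are shown because BATF3 acts with IRF8 at composite sites of an AP-1 and an IRF element, and because the plasmacytoid regulator TCF4 binds E-boxes. The windows, of 250 bases before to 50 bases after the RefSeq start in GRCm38.p6, span chr6:129408612-129408911 (plus strand), chr9:123861980-123862279 (minus strand) and chr7:55767934-55768233 (plus strand). Capitals mark the composite motif on either strand (TTTC, then 4 bases of any kind, then TGA) in Clec9a and Xcr1 and the E-box CANNTG in Siglech.
Clec9a: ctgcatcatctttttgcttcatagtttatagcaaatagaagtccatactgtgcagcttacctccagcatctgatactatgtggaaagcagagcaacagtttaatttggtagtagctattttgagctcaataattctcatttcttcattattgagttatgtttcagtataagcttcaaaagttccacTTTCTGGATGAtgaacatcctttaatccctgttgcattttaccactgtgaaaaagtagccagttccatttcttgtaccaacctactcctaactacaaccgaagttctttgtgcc
Xcr1: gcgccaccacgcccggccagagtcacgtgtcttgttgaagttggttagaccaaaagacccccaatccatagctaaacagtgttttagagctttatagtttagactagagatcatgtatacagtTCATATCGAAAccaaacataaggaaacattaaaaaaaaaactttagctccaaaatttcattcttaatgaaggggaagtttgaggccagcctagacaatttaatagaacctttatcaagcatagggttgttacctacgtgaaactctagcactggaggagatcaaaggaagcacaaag
Siglech: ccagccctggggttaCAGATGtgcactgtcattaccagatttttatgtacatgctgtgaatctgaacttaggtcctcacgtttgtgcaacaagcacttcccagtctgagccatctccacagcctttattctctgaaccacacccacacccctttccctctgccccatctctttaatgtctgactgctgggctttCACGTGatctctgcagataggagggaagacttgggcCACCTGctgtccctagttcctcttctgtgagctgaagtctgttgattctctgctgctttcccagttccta
The composite motif, searched on both strands, occurs in 2 of the 10 windows of the 9 genes, those of Clec9a (64 to 54 bases before the start) and Xcr1 (127 to 117 bases before it), and in 4.56% of all 32851 promoter windows of the same length. E-boxes occur in 9 of the 10 windows and in 72.3% of all windows. The window of Siglech holds 3, that of Zbtb46 holds 6 and the others hold 2 or fewer. The AP-1 motif TGANTCA occurs in the windows of Zbtb46 and Itgax (7.81% of all windows), the tandem IRF motif (GAAA, then 2 bases of any kind, then GAAA) in none of the 10 (3.44% of all windows), and the ETS core GGAA in 9 of the 10 (96% of all windows). The composite matches of Clec9a and Xcr1 overlap no match of the other motifs. These matches describe the letters only, and no binding was measured.

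Xcr1, the receptor for the chemokine XCL1 that natural killer cells and CD8+ T cells release, shares the composite motif but sat near the lower end of the scale. Its level was 7.19, 7.23, 7.22 and 7.26 in the HFD-ED mice, 7.37, 7.24, 7.30 and 7.31 in the HFD-CO mice and 7.30, 7.26, 7.22 and 7.33 in the control mice. In 3 of the 4 HFD-ED mice it lay below every HFD-CO mouse, and HFD-ED minus HFD-CO was -0.080 (SE 0.031, adjusted p = 0.490). HFD-ED minus control was -0.051 (adjusted p = 0.631) and HFD-CO minus control 0.030 (adjusted p = 1.0). Xcl1, its ligand, averaged 7.52 on HFD-ED, against 7.74 on HFD-CO and 7.75 on the control diet, with differences of -0.22 (adjusted p = 0.436) and -0.23 (adjusted p = 0.317) from them.

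Batf3 encodes the transcription factor that type 1 conventional cells need for their development. Its level was 7.96, 8.15, 7.70 and 7.92 in the HFD-ED mice, 8.01, 8.06, 8.13 and 8.15 in the HFD-CO mice and 8.22, 8.23, 8.11 and 8.12 in the control mice. In 3 of the 4 HFD-ED mice Batf3 lay below every control mouse and below every HFD-CO mouse, and replicate 2 lay among the control mice and at the level of the highest HFD-CO mouse. The difference HFD-ED minus control was -0.24 (SE 0.078, 95% interval -0.41 to -0.064, limma adjusted p = 0.370), HFD-ED minus HFD-CO was -0.15 (adjusted p = 0.598) and HFD-CO minus control -0.084 (adjusted p = 1.0). Without HFD-ED replicate 3, the lowest mouse, the HFD-ED differences were -0.16 from control (adjusted p = 0.566) and -0.074 from HFD-CO (adjusted p = 0.826). On the dimmer probe of Batf3, with a mean of 7.56, both high-fat diets lay wholly below the control mice. There the 4 HFD-ED mice had 7.46, 7.56, 7.45 and 7.47 and the HFD-CO mice 7.60, 7.59, 7.51 and 7.52, against 7.69, 7.61, 7.61 and 7.65 in the control mice. The differences from control on this probe were -0.15 for HFD-ED (SE 0.031, adjusted p = 0.237) and -0.084 for HFD-CO (adjusted p = 1.0).

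Irf8 is needed by type 1 conventional cells and is also expressed in plasmacytoid cells, B cells and monocytes. Its level was 10.77, 10.42, 9.83 and 10.48 in the HFD-ED mice, 10.50, 10.72, 10.71 and 10.44 in the HFD-CO mice and 10.92, 10.74, 10.44 and 10.42 in the control mice. HFD-ED replicate 3 was far below every other mouse, and the other 3 HFD-ED mice lay within the control range. HFD-ED minus control was -0.26 (SE 0.18, adjusted p = 0.692) with all mice and -0.075 (adjusted p = 0.932) without HFD-ED replicate 3. HFD-ED minus HFD-CO was -0.22 (adjusted p = 0.777) and -0.036 without that mouse, and HFD-CO minus control was -0.039 (adjusted p = 1.0). Clec9a did not share this dependence, since without HFD-ED replicate 3 it differed by -0.52 from control and by -0.46 from HFD-CO.

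Siglech encodes a member of the Siglec family of lectins on plasmacytoid cells. Its level was 9.30, 8.94, 8.55 and 9.33 in the HFD-ED mice, 8.82, 8.93, 8.93 and 9.16 in the HFD-CO mice and 9.59, 9.71, 9.11 and 9.15 in the control mice. Control replicates 1 and 2 had the highest values of all 12 mice, and control replicates 3 and 4 lay among the mice on the high-fat diets. The diet means were 9.03 ± 0.36 on HFD-ED, 8.96 ± 0.14 on HFD-CO and 9.39 ± 0.31 on the control diet (SD, n = 4 each). HFD-ED minus control was -0.36 (SE 0.19, 95% interval -0.77 to 0.050, limma adjusted p = 0.548), and -0.20 (adjusted p = 0.801) without HFD-ED replicate 3. HFD-CO minus control was -0.43 (SE 0.19, 95% interval -0.84 to -0.017, limma adjusted p = 1.0), with 3 of the 4 HFD-CO mice below every control mouse. HFD-ED minus HFD-CO was 0.067 (95% interval -0.35 to 0.48, adjusted p = 0.951), an interval that holds differences of either sign. On its second probe, with a mean of 7.35, the differences were -0.063 for HFD-ED and -0.057 for HFD-CO from control and -0.0070 for HFD-ED from HFD-CO. On the third, with a mean of 7.07, they were 0.046, 0.019 and 0.026. The mean of all 3 probes differed from control by -0.13 on HFD-ED and by -0.16 on HFD-CO. The other probes of Itgax, Flt3 and Zbtb46 had means between 7.08 and 7.15.

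The members shared by conventional cells lay at the lower end of the scale and varied little. Itgax, which encodes the integrin chain CD11c, was at 7.27, 7.21, 7.14 and 7.18 in the HFD-ED mice, 7.25, 7.23, 7.29 and 7.27 in the HFD-CO mice and 7.28, 7.34, 7.23 and 7.29 in the control mice. Its mean was lowest on HFD-ED, with a difference of -0.082 from control (SE 0.029, adjusted p = 0.400) and of -0.058 from HFD-CO (adjusted p = 0.591), and HFD-CO minus control was -0.024. Flt3 ranged from 7.07 to 7.19 over the 12 mice, with differences of -0.039 (HFD-ED minus control), -0.0014 (HFD-CO minus control) and -0.038 (HFD-ED minus HFD-CO). Zbtb46, a transcription factor of conventional but not plasmacytoid cells, ranged from 7.30 to 7.5, with differences of 0.031, -0.00073 and 0.032 in the same order of comparisons. Cd209a, a mouse homolog of DC-SIGN found on type 2 and monocyte-derived cells, was at 7.38, 7.5, 7.26 and 7.29 in the HFD-ED mice, 7.35, 7.32, 7.33 and 7.35 in the HFD-CO mice and 7.45, 7.53, 7.35 and 7.48 in the control mice. Its mean was lowest on HFD-CO, where the difference from control was -0.12 (limma adjusted p = 1.0), against -0.098 for HFD-ED minus control (adjusted p = 0.552) and 0.020 for HFD-ED minus HFD-CO.

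**Figure D2:**
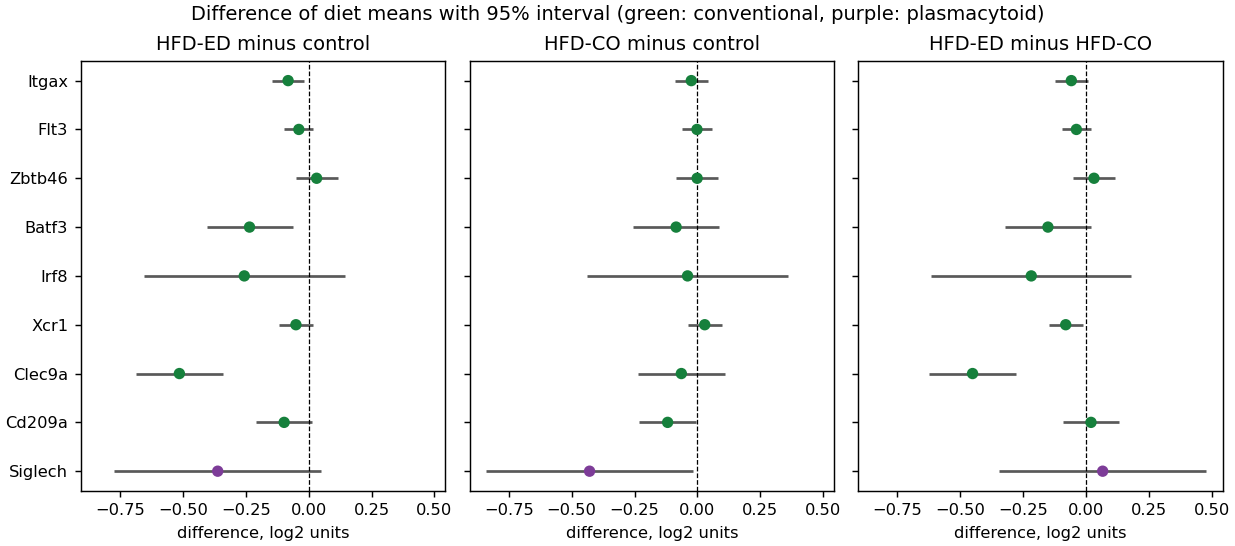
Difference of diet means in log2 units (x axis) for each gene (y axis) in the 3 comparisons, where points are differences, lines 95% intervals from limma (4 mice per diet), green conventional and purple plasmacytoid genes. The interval of Clec9a lies far from 0 in both HFD-ED comparisons (-0.69 to -0.34 from control, -0.62 to -0.28 from HFD-CO), and that of Siglech is wide in all 3.

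Counted over the members, 0 of 9 passed an adjusted p of 0.05 in each of the 3 comparisons. The share of all probes that passed was 0% between HFD-ED and control, 0% between HFD-CO and control and 0.00221% between HFD-ED and HFD-CO. At an unadjusted limma p under 0.05, 3 of 9 were lower on HFD-ED than on the control diet (Clec9a, Batf3 and Itgax) and 0 higher, beside 5.67% and 4.54% of all probes. Likewise 2 of 9 were lower on HFD-CO than on the control diet (Siglech and Cd209a) and 0 higher, beside 2.44% and 2.14%, and 2 of 9 were lower on HFD-ED than on HFD-CO (Clec9a and Xcr1) and 0 higher, beside 4.70% and 4.60%. On the probe used for each gene, Clec9a was the single member whose HFD-ED mice all lay below the control mice, as did 2.85% of all probes and 5.60% of those with a mean of 7.5 or more. It was also the single one whose HFD-ED mice all lay below the HFD-CO mice, as did 2.24% and 3.96%. On these probes no member lay wholly below control on HFD-CO (1.57% and 2.07%). None lay wholly above the second diet in any of the 3 comparisons (1.82% for HFD-ED over control, 1.44% for HFD-CO over control, 1.73% for HFD-ED over HFD-CO). On the dimmer probe of Batf3, with a mean of 7.56, the mice of HFD-ED and those of HFD-CO all lay below the control mice. By mean alone, 8 of 9 members were lower on HFD-ED than on the control diet, with a median difference of -0.098, where 54.1% of all genes and 59.0% of those with a mean of 7.5 or more were lower. On HFD-CO 8 of 9 were lower than on the control diet, with a median of -0.039, beside 52.2% and 54.8%. Between HFD-ED and HFD-CO, 6 of 9 had the lower mean on HFD-ED and the median was -0.058, beside 53.0% and 57.2%. The medians over all genes were -0.0036, -0.0018 and -0.0026 in these comparisons.

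Conventional and plasmacytoid genes were then contrasted mouse by mouse, as the mean deviation of the 8 conventional members from their 12-mouse means minus the deviation of Siglech. The conventional mean deviated by -0.044, -0.044, -0.20 and -0.079 in the HFD-ED mice, by 0.0068, 0.046, 0.039 and 0.016 in the HFD-CO mice and by 0.13, 0.12, -0.0026 and 0.013 in the control mice, so that all 4 HFD-ED mice lay below the other 8. Clec9a carried this separation: with the other 7 conventional members the HFD-ED mice were at 0.0020, 0.00040, -0.18 and -0.053, the HFD-CO mice at -0.024 to 0.044 and the control mice at -0.0073 to 0.095, and the diets overlapped. The contrast was -0.21, 0.14, 0.38 and -0.28 in the HFD-ED mice, 0.31, 0.24, 0.23 and -0.019 in the HFD-CO mice and -0.34, -0.47, 0.016 and -0.0082 in the control mice. Its mean was 0.0073 ± 0.31 on HFD-ED, 0.19 ± 0.14 on HFD-CO and -0.20 ± 0.24 on the control diet (SD, n = 4 each), and the diets overlapped. Siglech deviated over a wider range (-0.58 to 0.59) than the conventional mean (-0.20 to 0.13), in which most members lie where the scale compresses differences. The contrast therefore mostly followed Siglech with its sign reversed. With the 3 bright conventional members alone it averaged -0.10 on HFD-ED, 0.24 on HFD-CO and -0.13 on the control diet. HFD-CO mice thus had conventional genes near their average with low Siglech in 3 of 4 mice, and HFD-ED mice were spread over both signs. With Clec9a alone in place of the conventional mean, the contrast averaged -0.22 ± 0.36 on HFD-ED, 0.29 ± 0.22 on HFD-CO and -0.071 ± 0.15 on the control diet. HFD-ED replicates 1 and 4 had Clec9a 0.37 and 0.26 below its mean with Siglech 0.17 and 0.20 above its own. HFD-CO replicates 1 and 2 had the opposite pattern, with Clec9a 0.22 above and Siglech 0.31 and 0.19 below. In HFD-ED replicate 3 both genes were low, and in control replicates 1 and 2 both were high.

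**Figure D3:**
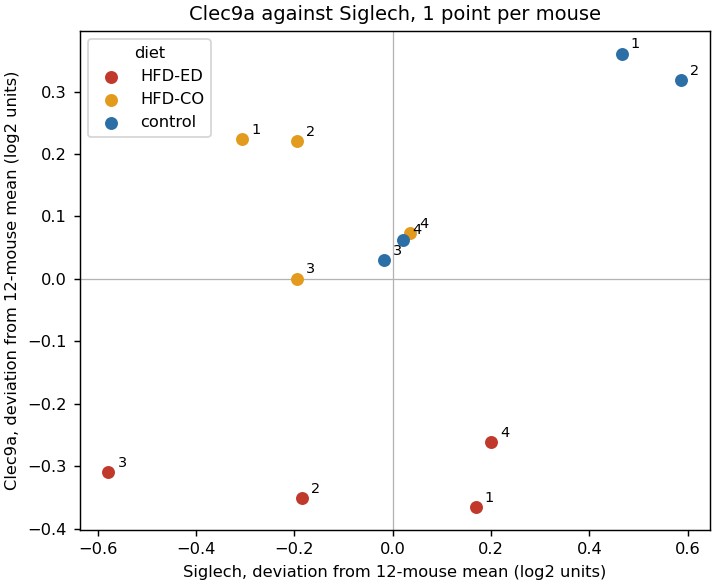
Deviation of Clec9a (y axis) against that of Siglech (x axis) from their 12-mouse means, in log2 units, with 1 point per mouse labelled by its replicate number. The 4 HFD-ED mice lie in a row 0.26 to 0.37 below the Clec9a mean while their Siglech deviations run from -0.58 to 0.20.

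Over the 12 mice Clec9a and Siglech correlated weakly, with Pearson's r of 0.399 and Spearman's rho of 0.273 (permutation p = 0.199 and 0.387, adjusted over the 36 pairs of members 0.446 and 0.684), and r was 0.525 without the 2 mice farthest from the median of Clec9a. Irf8 and Siglech had r = 0.694 and rho = 0.497 (permutation p = 0.0126 and 0.102, adjusted 0.113 and 0.393), with r = 0.785 for the deviations from the diet means, but r was 0.292 without the 2 mice with the most extreme Irf8. Batf3 and Clec9a had r = 0.615 and rho = 0.510 (permutation p = 0.0272 and 0.0947, adjusted 0.119 and 0.393), and r of their deviations from the diet means was 0.029. Of the 36 pairs, 0 passed an adjusted permutation p of 0.05.

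By likeness over the 12 mice, among 7013 other genes with a mean of 7.5 or more, the genes most like Clec9a were P2ry14 (r = 0.944), Rab34 (0.942), Avpi1 (0.925), Zfand3 (0.918) and Angpt2 (0.908). P2ry14 encodes a receptor for UDP-sugars, Rab34 a small GTPase and Angpt2 a ligand of the TIE2 receptor. For the deviations from the diet means the r values were 0.715, 0.906, 0.770, 0.857 and 0.800. The genes most like Siglech were Supt5 (r = 0.903), Sptbn1 (0.901), Zmiz1 (0.891), Atp13a2 (0.886) and Synm (0.885). None of these 5 is among those most like Clec9a. Itgax was most like Chst3 (0.950), Fcrla (0.929), Myo1g (0.912), Cyp2d22 (0.908) and Blk (0.908), of which Fcrla and Blk are B cell genes, and Flt3 was most like Trmt1l (0.846), Srp72 (0.843), Commd10 (0.806), Lilrb4a (0.804) and Parp3 (0.792). All values of a mouse come from 1 array, and these genes were picked for their r.

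Other genes of type 1 conventional cells were taken as a list, of which 18 of 20 were measured and 8 had a mean of 7.5 or more. For HFD-ED against control 13 were lower and 5 higher (median difference -0.031), beside 54.1% of all genes lower. At an unadjusted limma p under 0.05, 5 were lower and 1 higher, beside 5.67% and 4.54% of all probes. For HFD-ED against HFD-CO 11 were lower and 7 higher (median -0.036), beside 53.0% lower. At that p 3 were lower and 1 higher, beside 4.70% and 4.60%. For HFD-CO against control 11 were lower and 7 higher (median -0.0067), beside 52.2% lower, with 0 at that p, beside 2.44% and 2.14%. These shares, and those given above for diets without overlap, apply to the lists below as well. In each comparison 0 passed an adjusted p of 0.05. Cadm1, an adhesion molecule of these cells, was at 9.18, 9.20, 8.93 and 8.87 in the HFD-ED mice, 9.22, 9.34, 9.10 and 9.21 in the HFD-CO mice and 9.63, 9.40, 9.40 and 9.20 in the control mice. All 4 HFD-ED mice lay below the 4 control mice, replicate 2 by less than the rounding of these values, and HFD-ED minus control was -0.36 (SE 0.099, adjusted p = 0.307). Rab7b, a small GTPase of late endosomes, also lay below all control mice on HFD-ED, with a difference of -0.27 (SE 0.069, adjusted p = 0.281) and of -0.17 from HFD-CO (adjusted p = 0.500). Tlr11, the receptor for profilin of protozoa, differed by -0.12 between HFD-ED and HFD-CO (adjusted p = 0.500). Cd24a differed with the opposite sign and lay above all control mice on HFD-ED, with 7.34, 7.72, 7.83 and 7.5 in the HFD-ED mice, 7.19, 7.20, 7.42 and 7.20 in the HFD-CO mice and 7.20, 7.18, 7.28 and 7.33 in the control mice. Its differences were 0.35 from control (SE 0.096, limma adjusted p = 0.307) and 0.34 from HFD-CO (limma adjusted p = 0.406). Cd24a is also expressed in erythroid cells, B cells and granulocytes. Tlr11 and Cd24a had means of 7.36 and 7.37 over the 12 mice, where the scale compresses differences.

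The mean deviation of this list was -0.037, -0.045, -0.057 and -0.051 in the HFD-ED mice, between -0.012 and 0.037 in the HFD-CO mice and between 0.00014 and 0.073 in the control mice, so by this mean the HFD-ED mice again lay below all others. By the median gene of the list they did not, since that lay between -0.027 and -0.011 in the HFD-ED mice, between -0.023 and 0.027 in the HFD-CO mice and between -0.0087 and 0.036 in the control mice, and the separation of the mean thus rested on part of the genes. Over the 12 mice the mean correlated with Clec9a with r = 0.905 and rho = 0.853 (permutation p = 0.00016 and 0.00085, adjusted over 28 pairs of lists and members 0.00448 and 0.0238). These permutations mixed mice of all diets, so a diet difference that both quantities share can alone give a small p. The relation held without the 2 mice farthest from the median of the list (r = 0.866), and r of the deviations from the diet means was 0.685, but with the median gene of the list in place of the mean r was 0.482. With Siglech the list had r = 0.540 and rho = 0.371 (permutation p = 0.0702 and 0.236, adjusted 0.0894 and 0.287), and r was 0.197 without the 2 farthest mice.

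Of 23 measured genes on the plasmacytoid list, 17 had a mean of 7.5 or more. For HFD-ED 20 were lower against control (median -0.10) and 20 against HFD-CO (median -0.079), but 9 were lower and 14 higher for HFD-CO against control (median 0.0082). In each comparison 0 passed an adjusted p of 0.05, and at an unadjusted limma p under 0.05 there were 1 lower and 0 higher, 1 lower and 0 higher, and 1 lower and 1 higher. Siglech, at -0.43 for HFD-CO against control, was thus not matched by the median of this list. Over the 12 mice the mean deviation of the list had r = 0.447 and rho = 0.399 with Siglech (permutation p = 0.142 and 0.199, adjusted 0.166 and 0.266). With Clec9a, Irf8 and Batf3 its r was higher, at 0.582, 0.583 and 0.667. For deviations from the diet means r was 0.58 with Siglech, against 0.049, 0.46 and 0.50 with those genes. The lower means on HFD-ED were not particular to plasmacytoid genes. The B cell list had 9 of 11 genes lower against control (median -0.17) and 10 of 11 against HFD-CO (median -0.15). Cox6a2, a cytochrome oxidase subunit, had the smallest limma p of the list in both comparisons with the control diet, at 7.70, 7.74, 7.53 and 7.53 in the HFD-ED mice and 7.55, 7.63, 7.55 and 7.57 in the HFD-CO mice, against 8.01, 7.83, 7.71 and 7.74 in the control mice. All HFD-CO mice lay below the control mice, with a difference of -0.25 (SE 0.067, limma adjusted p = 1.0), and HFD-ED minus control was -0.20 (adjusted p = 0.371). Bst2, an interferon-induced surface protein, averaged 7.96 on HFD-ED and 7.95 on HFD-CO, against 8.31 on the control diet, with differences of -0.36 each (adjusted p = 0.502 and 1.0). Pacsin1, an endocytic adaptor, averaged 8.24 on HFD-ED, 8.50 on HFD-CO and 8.21 on the control diet, with HFD-CO minus control at 0.29 (adjusted p = 1.0) and HFD-ED minus HFD-CO at -0.26 (adjusted p = 0.583). Ly6d averaged 11.57 on HFD-ED and 11.82 on the control diet, a difference of -0.25 (adjusted p = 0.523), and is a B cell gene as well.

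Genes of type 2 conventional cells, all 16 measured, had 13 lower and 3 higher for HFD-ED against control (median -0.085), 11 and 5 for HFD-CO against control (median -0.049) and 10 and 6 for HFD-ED against HFD-CO (median -0.0068). At an unadjusted limma p under 0.05 there were 2, 0 and 0, and 0 passed after adjustment. Of all probes, 5.67%, 2.44% and 4.70% were lower at the unadjusted p in these comparisons. Mgl2 and Clec10a, galactose-binding lectins of these cells, differed by -0.10 (limma adjusted p = 0.419) and -0.087 (limma adjusted p = 0.478) between HFD-ED and control. Their means over the 12 mice, 7.47 and 7.39, lie where the scale compresses differences. Dtx1, a target of Notch signalling, was below all control mice on HFD-CO, at 9.20 on average against 9.59 (difference -0.39, SE 0.18, adjusted p = 1.0). Irf4, the transcription factor of type 2 cells and of plasma cells, averaged 8.84 in HFD-ED spleens, against 9.05 in HFD-CO spleens (difference -0.21, adjusted p = 0.606).

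Genes of dendritic cell growth, maturation and migration, 23 measured, had 20 lower on HFD-ED than on control (median -0.14, 8 at an unadjusted limma p under 0.05) and 19 lower on HFD-ED than on HFD-CO (median -0.082, 6 at that p), against 15 lower for HFD-CO against control (median -0.015, 1 at that p). Again 0 passed after adjustment. Of all probes, 5.67%, 4.70% and 2.44% were lower at the unadjusted p in these comparisons. Cd40, the receptor through which T cells activate dendritic cells and B cells, had 10.11, 10.08, 9.76 and 10.22 in the HFD-ED mice, 10.52, 10.32, 10.49 and 10.45 in the HFD-CO mice and 10.57, 10.60, 10.56 and 10.56 in the control mice. The HFD-ED mice lay below both other diets, with differences of -0.53 from control (SE 0.081, adjusted p = 0.193) and -0.40 from HFD-CO (SE 0.081, adjusted p = 0.337). Dpp4, a dipeptidyl peptidase of type 1 conventional cells and T cells, differed by -0.42 from control (adjusted p = 0.313) and by -0.42 from HFD-CO (adjusted p = 0.398), without overlap in either. Ltb, the lymphotoxin subunit, was 9.99 to 10.02 in the HFD-ED mice and 10.24 to 10.39 in the HFD-CO mice, a difference of -0.30 (SE 0.065, adjusted p = 0.337). Csf2ra, a chain of the GM-CSF receptor, had 8.19, 7.78, 7.91 and 7.86 in the HFD-ED mice, 7.97, 7.94, 7.96 and 8.02 in the HFD-CO mice and 8.14, 8.23, 8.14 and 8.06 in the control mice. It differed by -0.21 (adjusted p = 0.399) for HFD-ED and by -0.17 (adjusted p = 1.0) for HFD-CO from control, and without HFD-ED replicate 1 the HFD-ED difference was -0.30 (SE 0.040) with an adjusted p of 0.0366. That mouse had the highest HFD-ED value of Csf2ra. Of all single mice left out, it also gave the most calls over all probes for HFD-ED against control.

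The 9 MHC class II genes, through which dendritic cells, B cells and macrophages present antigen, were all lower on HFD-ED than on the control diet (median -0.32, 7 at an unadjusted limma p under 0.05) and than on HFD-CO (median -0.24, 5 at that p), while 4 were lower and 5 higher on HFD-CO than on control (median 0.019, 0 at that p). Of genes with a mean of 7.5 or more, 59.0%, 57.2% and 54.8% were lower in these comparisons. Of all probes, 5.67%, 4.70% and 2.44% were lower at that p. H2-DMa, which encodes a chain of the peptide exchange factor, lay below both other diets on HFD-ED, with differences of -0.43 from control (SE 0.11, adjusted p = 0.276) and -0.48 from HFD-CO (SE 0.11, adjusted p = 0.342). Cd74, the invariant chain, differed by -0.33 from control (adjusted p = 0.344). H2-Eb1 and H2-Ab1 lay below all HFD-CO mice on HFD-ED, by -0.21 (adjusted p = 0.345) and -0.27 (adjusted p = 0.453). HFD-ED replicate 3 was the lowest mouse for this list, at a mean deviation of -0.50, and HFD-ED replicate 1, at 0.053, lay within the range of the control mice.

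**Figure D4:**
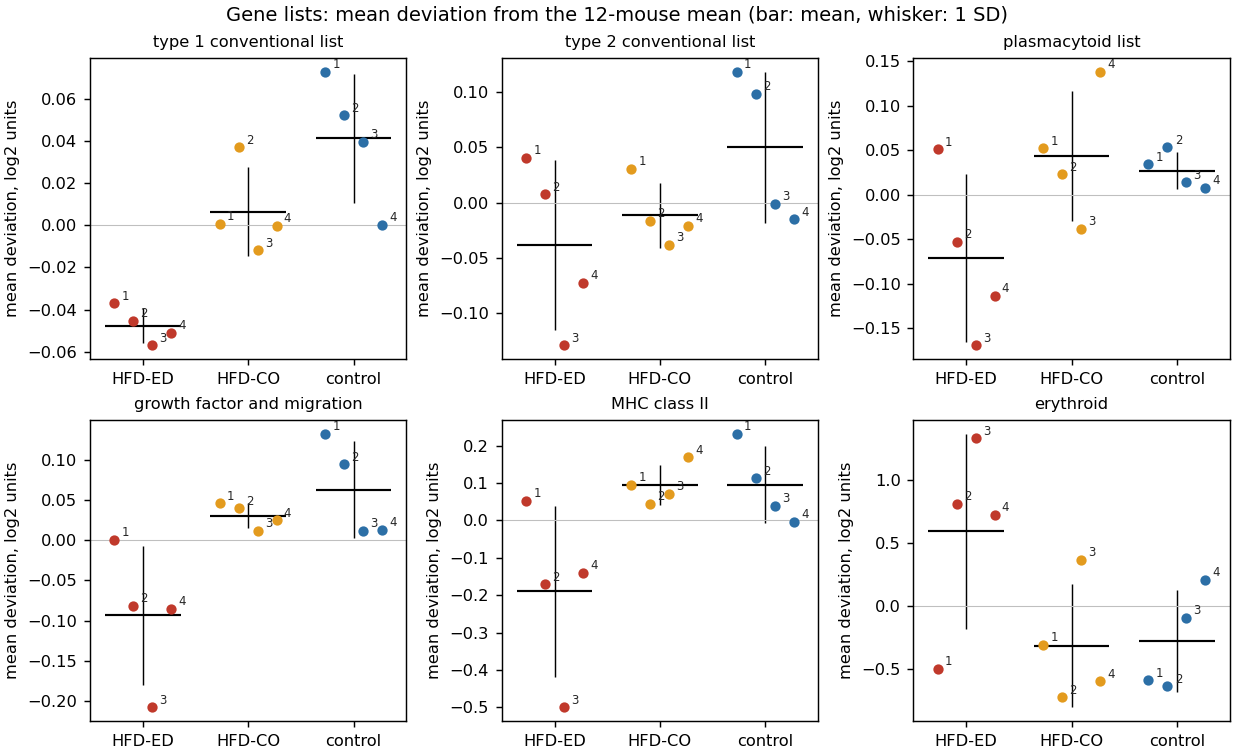
Level of 6 gene lists in each spleen, as the mean over genes of the log2 deviation from the average of the 12 mice (y axis, own scale in each panel), by diet, where points are mice with replicate numbers, bars diet means and whiskers 1 SD (n = 4). On the type 1 conventional list the 4 HFD-ED mice lie together between -0.057 and -0.037, whereas on the MHC class II and erythroid lists HFD-ED replicate 3 stands out and replicate 1 lies among the other diets.

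Marker lists of other cell types also differed in mean between the diets. The erythroid list, 18 genes measured, deviated by -0.50, 0.81, 1.33 and 0.72 in the HFD-ED mice, by -0.31, -0.72, 0.37 and -0.60 in the HFD-CO mice and by -0.59, -0.64, -0.092 and 0.21 in the control mice, with 18 of 18 higher on HFD-ED than on control. The neutrophil list deviated by -0.23, 0.59, 1.74 and 0.39 in the HFD-ED mice, by -0.26, -0.69, -0.46 and -0.56 in the HFD-CO mice and by -0.35, -0.58, 0.19 and 0.22 in the control mice. Of 15 neutrophil genes measured, 15 were higher on HFD-ED than on each other diet, with a median difference of 0.74 from control and 1.06 from HFD-CO. The proliferation list, 12 genes of cell division, deviated by -0.082, 0.41, 0.98 and 0.44 in the HFD-ED mice, by -0.14, -0.27, 0.18 and -0.48 in the HFD-CO mice and by -0.56, -0.46, -0.040 and 0.033 in the control mice, with 11 of 12 higher on HFD-ED than on control (median 0.76) and than on HFD-CO (median 0.70). On these 3 lists HFD-ED replicates 2, 3 and 4 were above all other mice and replicate 1 lay among them, and 0 genes passed an adjusted limma p of 0.05 in any comparison. At an unadjusted p under 0.05, 9 erythroid, 3 neutrophil and 11 proliferation genes were higher for HFD-ED against control, and 11, 12 and 10 for HFD-ED against HFD-CO. Of all probes, 4.54% and 4.60% were higher at that p in these comparisons. The B cell list, 11 genes measured, had 9 lower and 2 higher for HFD-ED against control (median -0.17) and 10 lower and 1 higher for HFD-ED against HFD-CO (median -0.15). Of all genes, 54.1% and 53.0% were lower in these comparisons. Clec9a was 8.25 in HFD-ED replicate 1, and without this mouse it differed by -0.50 from control and by -0.44 from HFD-CO. The proliferation list and Clec9a had r = -0.776 and rho = -0.776 over the 12 mice (permutation p = 0.00251 and 0.00443, adjusted 0.0220 and 0.0620), with r = -0.729 without the 2 mice of most extreme proliferation level and r = -0.412 for deviations from the diet means. The neutrophil and B cell lists had r = -0.657 and r = 0.659 with Clec9a (adjusted permutation p = 0.0333 each), and -0.257 and 0.111 for deviations from the diet means. The erythroid list and Clec9a had r = -0.700 and rho = -0.685 over the 12 mice (permutation p = 0.0125 and 0.0168, adjusted 0.0333 and 0.101), with r = -0.515 without the 2 mice of most extreme erythroid level and r = -0.385 for deviations from the diet means. The erythroid list and Siglech had r = -0.556 and rho = -0.434 (permutation p = 0.0602 and 0.161, adjusted 0.0803 and 0.237), with r = -0.214 without the 2 mice and r = -0.696 for deviations from the diet means. The B cell, proliferation and neutrophil lists had r = 0.652, -0.656 and -0.53 with Siglech (adjusted permutation p = 0.0372, 0.0372 and 0.0986). Their rho was 0.552, -0.47 and -0.245 (adjusted permutation p = 0.125, 0.207 and 0.496). Without the 2 mice farthest from the median of each list, r was 0.316, -0.64 and -0.00025. For deviations from the diet means it was 0.827, -0.822 and -0.888. The neutrophil list and Irf8 had r = -0.861 and rho = -0.652 (permutation p = 0.00183 and 0.0253, adjusted 0.0220 and 0.101), with r = -0.559 without the 2 mice and r = -0.925 for deviations from the diet means. The part of these other cell types in the differences of Clec9a, Siglech, Irf8 and Batf3 was not tested.

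**Figure D5:**
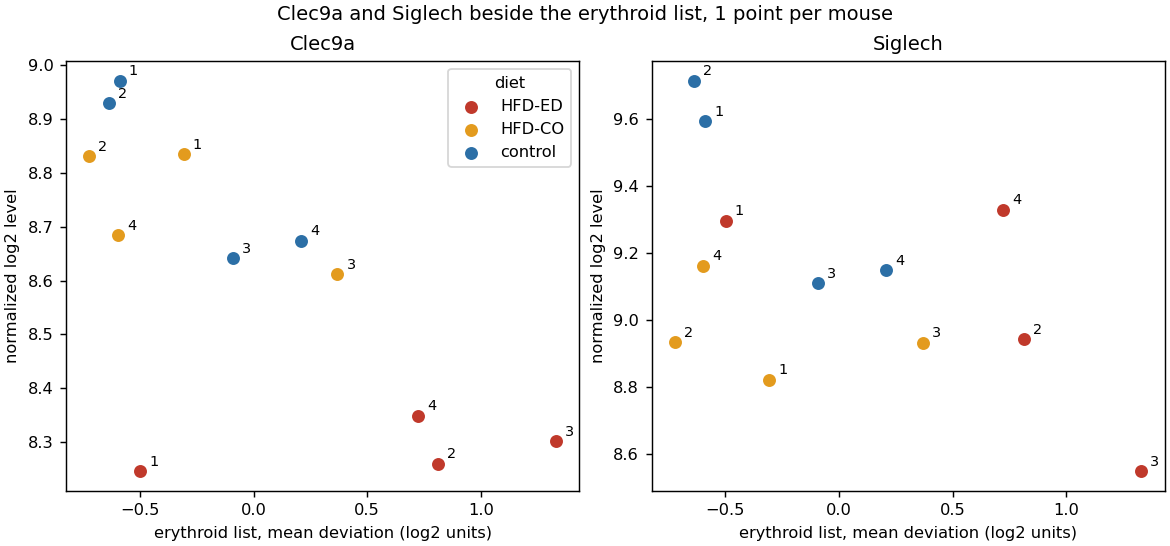
Normalized log2 level (y axis) of Clec9a and of Siglech against the mean deviation of the erythroid list (x axis, log2 units), with 1 point per mouse labelled by its replicate number. HFD-ED replicates 2, 3 and 4 have erythroid deviations of 0.72 to 1.33 beside Clec9a levels of 8.26 to 8.35, and HFD-ED replicate 1 has -0.50 beside Clec9a at 8.25 and Siglech at 9.30.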

How the data were processed

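Spleen RNA of 12 mice, 1 array per mouse, was hybridized to Illumina MouseWG-6 v2.0 BeadChips. The authors extracted bead intensities with GenomeStudio, applied a variance-stabilizing transformation and quantile normalization with lumi (2.18.0 per the labels), and the deposited values, close to log2, were used unchanged. Of 45281 probes, 34885 carried 1 gene symbol. With limma 3.58.1 in R 4.3.3, 1 linear model held the 3 diets (lmFit and eBayes, two-sided) and p-values were adjusted by Benjamini-Hochberg over all probes within a comparison, with 0.05 as the threshold (0.001, the threshold of the methods, gave 0 calls). The test was checked on simulated arrays. Correlations over mice used 100000 permutations of the 12 mice without regard to diet, so a shared difference between diets can alone give a small p. No p was computed for deviations from the diet means. Companion genes were named by rule, as up to 3 with the smallest p per list and comparison, and likeness was searched for Clec9a, Siglech, Itgax and Flt3. A gene named outside the rule is Csf2ra for HFD-ED against control, chosen after its values were seen. The members and lists were chosen with earlier results of these data known. Nothing states separate cages, so p-values measure the spread between these mice. Detection p-values were not used here, and the number of arrays limits the precision. Promoter windows were taken from RefSeq (GRCm38.p6) by gene symbol, which matched all 9 genes. Alternatives were a replicate block, array weights, a variance trend, 1 probe per symbol, a filter on dim probes, median centring, a fit of 2 diets, joint adjustment, mean probes and leaving out each mouse.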

Additional observations from a re-analysis of the deposited data

Results flagged for a closer look

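Among the 27 sets of 4 values (9 genes in 3 diets), 2 held a mouse set apart from the other 3 by Dixon's criterion, both for Zbtb46. HFD-CO replicate 1 was at 7.30, against 7.43 to 7.45 in the other HFD-CO mice, and control replicate 4 was at 7.34, against 7.42 to 7.43 in the other control mice. The gap made up 0.889 and 0.839 of the whole range. Chance alone sets apart about 5% of such groups, and both values lie near the lower end of the scale.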

How the results depend on the processing

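Under every alternative 0 of the 9 dendritic cell genes passed an adjusted p of 0.05. Of 597 alternative values for 39 results, 568 kept their direction and their side of the threshold. Clec9a on HFD-ED ranged from -0.57 to -0.46 against control and from -0.49 to -0.42 against HFD-CO when single mice were left out, and its smallest adjusted p was 0.0521 and 0.0778, both without HFD-ED replicate 1. The mean of its 3 probes moved it to -0.21 and -0.17. Siglech ranged from -0.46 to -0.20 for HFD-ED and from -0.52 to -0.32 for HFD-CO against control when single mice were left out, and the mean of its 3 probes gave -0.13 and -0.16. Batf3 on HFD-ED ranged from -0.31 to -0.16 against control and from -0.22 to -0.074 against HFD-CO, the values nearest 0 without HFD-ED replicate 3. The mean conventional minus Siglech contrast of HFD-ED mice, 0.0073, was -0.10 with the 3 bright conventional members alone and 0.040 without Clec9a, an alternative chosen after seeing the data, as was the median gene of the type 1 list.

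Differences near 0 changed sign. Zbtb46 for HFD-CO against control was 0.00026 with median centring (-0.00073 as deposited) and Flt3 was 0.0081 with the mean of its probes (-0.0014). With single mice left out, HFD-CO against control ranged from -0.016 to 0.022 for Flt3, from -0.022 to 0.034 for Zbtb46 and from -0.11 to 0.057 for Irf8. HFD-ED against HFD-CO ranged from -0.033 to 0.23 for Siglech (-0.022 without HFD-ED replicate 1), from -0.028 to 0.051 for Cd209a and from -0.0025 to 0.054 for Zbtb46.

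Over all probes, the 1 call of HFD-ED against HFD-CO became 0 with a variance trend, with dim probes left out, with 2 diets only and with adjustment over the 3 comparisons, and ranged from 0 to 46 with single mice left out. HFD-ED against control, with 0 calls, had 3 with 1 probe per symbol and 0 to 87 with single mice left out. The 87 and the 46 came without HFD-ED replicate 1. Companion genes called for HFD-ED against control ranged from 0 to 1, the 1 being Csf2ra without that mouse. The cause was not tested.

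With the replicate number as a block, 0 members passed in any comparison, Clec9a reached an adjusted p of 0.148 (from control) and 0.236 (from HFD-CO), and the 1 probe called for HFD-ED against HFD-CO became 0. Of 12 same-numbered pairs, 4 had deviations correlated over 0.1, and these included every pair of replicate 3. The r values ran from -0.26 (HFD-CO and control replicate 4) to 0.37 (HFD-ED and HFD-CO replicate 3). This check cannot settle whether same-numbered mice shared a batch, and the main model did not pair them. The filter on dim probes left no value for Itgax, Flt3, Zbtb46, Xcr1 and Cd209a, whose differences the scale compresses.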
